A study of Homo sapiens with 10 samples.

Results

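The 8 genes described here encode the antigen-presenting cell side of T cell costimulation and coinhibition: CD80, CD86, CD274, PDCD1LG2, ICOSLG, CD276 and VSIR of the B7 family, and CD40, a receptor of the TNF receptor superfamily. They were taken by gene symbol and protein-coding status from the deposited tables, where each symbol has 1 such row, so that the members are 8 of 19975 protein-coding genes and of 60603 genes in all. RNA was measured by mRNA-seq in NB4, a human cell line derived from acute promyelocytic leukemia. In the knockdown experiment, cells received a pLKO.1 puro lentivirus and were collected 48 h later; this was either empty (EV) or carried shA1 or shB2, short-hairpin RNAs that target GSE1, a subunit of corepressor complexes. All cells of the knockdown experiment, controls included, thus carried the lentiviral vector. In the inhibition experiment, NB4 cells without a vector in their labels received DMSO or 2 µM MC2580, an inhibitor of the histone demethylase LSD1, for 24 h. Each condition has 2 replicates, giving 6 libraries in the knockdown and 4 in the inhibition experiment, all from 1 cell line.

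B7 proteins are cell-surface ligands of the immunoglobulin superfamily. A T cell that meets its antigen needs a second signal, which CD80 and CD86 give through CD28, while the same ligands dampen the cell through CTLA4. CD40 works in the other direction, since it receives CD40LG from activated T cells and raises the stimulatory capacity of the cell that bears it. CD80, CD86 and CD40 are known from antigen-presenting cells such as macrophages and dendritic cells, and CD86 is used as a surface marker of myeloid differentiation.

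The level given for each gene is the base mean, the authors' mean of normalized counts over every library of an experiment, control and treated libraries together. The value per library is not given in the tables used here, and fold changes and p-values of the authors' own comparisons were not used. For this reason no level carries a standard deviation, no condition is compared with its control, and a higher or lower level below is a description without a test. In bulk RNA, fewer cells that express a gene and less RNA per cell cannot be told apart.

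The knockdown target GSE1 had a base mean of 2963 in the knockdown experiment and of 4441 in the inhibition experiment, and KDM1A, which encodes LSD1, had 7648 and 6285. The check of the target in each library was not possible from a pooled mean. Among 7 promyelocyte markers, 6 reached a base mean of 50 in both experiments, led by MPO, the myeloperoxidase of azurophil granules, at 506765 and 824818. The exception was ELANE, which encodes neutrophil elastase, under 10 in both. Of 7 monocyte, macrophage and dendritic cell genes, 2 reached 50, CD83 at 1062 and 1109 and CCR7 at 133 and 157, and CLEC9A was listed at 0. CD14, the monocyte co-receptor for lipopolysaccharide, had 31.6 and 17.5. The lists of 4 other lineages had 1 marker at 50 or more each, namely CD3D among 3 T cell genes, at 866 and 869, CD79A among 3 B cell genes, at 121 and 116, NCAM1 among 2 natural killer cell genes, at 1286 and 883, and ITGA2B among 2 platelet genes, at 660.1 and 549. CD3E, in contrast to CD3D, stood at 1.55 and 2.98. Their part in the levels below was not tested. The platelet gene PPBP was listed at 0 in both experiments.

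VSIR was the most abundant of the 8 genes. It encodes VISTA, a B7-like inhibitory protein of myeloid cells, and lies on the minus strand of chromosome 10 of GRCh38, from 71747556 to 71773520 (ENSG00000107738.20). Its base mean was 2445 in the knockdown and 1898 in the inhibition experiment. VSIR alone made up 75.9% of the summed base mean of the 8 genes in the first and 81.5% in the second. Divided by the length of the merged exons of GENCODE release 44, which allows levels to be compared between genes, VSIR stood at 475 per kb and 368 per kb. Of the protein-coding genes, 81.9% and 79.3% had a lower level per kb.

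CD86 followed VSIR per kb of merged exon in both experiments. It encodes B7-2, a ligand of CD28 and CTLA4, and lies on the plus strand of chromosome 3, from 122055362 to 122121139 (ENSG00000114013.16). The base mean of CD86 was 405 in the knockdown and 138 in the inhibition experiment, which is 118 and 40.3 per kb. Of the protein-coding genes, 61.6% and 51.9% had a lower level per kb. Among those with a base mean above 0 these shares were 55.9% and 43.9%. Without division by length, over all protein-coding genes, they were 56.5% and 49.6%. CD80, its closest relative in receptor use, had a base mean of 1.95 and 1.60 (ENSG00000121594.12, minus strand of chromosome 3, from 119524293 to 119559614). Summed over libraries, the CD80 values amount to 11.7 and 6.39 normalized counts. Because the conditions have equal numbers of libraries, a pooled mean also bounds each condition, and no condition can have averaged more than 5.86 normalized counts of CD80 in the knockdown or 3.20 in the inhibition experiment. For CD86 the same bounds are 1215 and 277.

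**Figure D1:**
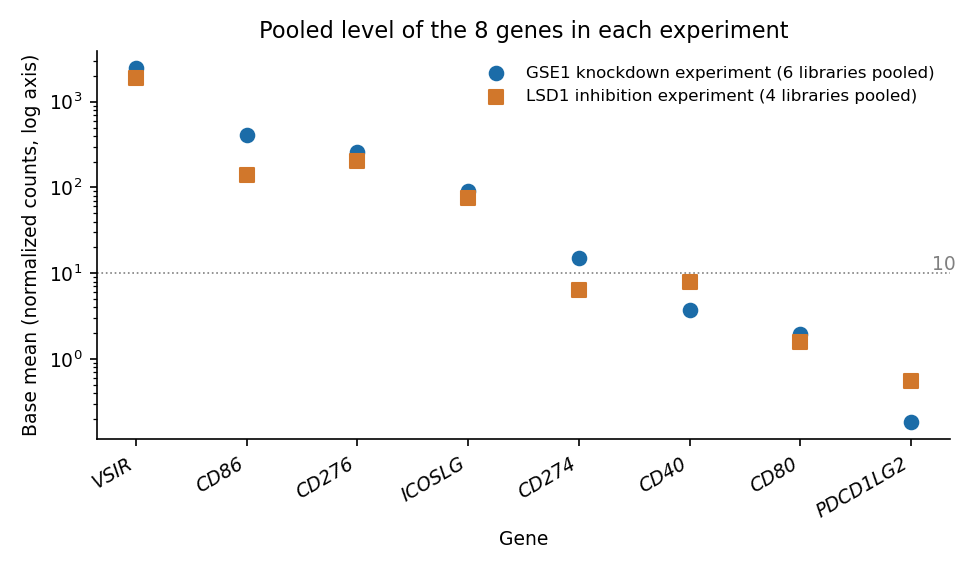
Base mean of each of the 8 genes (log axis) in the knockdown experiment (circles, 6 libraries pooled) and in the inhibition experiment (squares, 4 libraries pooled), with a dotted line at 10. Pooled values have no error bars; VSIR is highest at 2445 and 1898, and PDCD1LG2 lowest at 0.186 and 0.560.

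CD86 is also the member with a promoter element in the primer list of the study. Its pair of primers for chromatin immunoprecipitation was matched to the hg38 genome, to show where the element lies relative to the annotated starts of CD86. Both primers matched without mismatch on chromosome 3, at chr3:122074872-122075068, an element of 197 bases. The forward primer had 1 further match, on chromosome 4, and the reverse primer had no other. The element holds 0 exonic bases of any GENCODE transcript of CD86, so it is intronic to the longest gene model. It begins 19510 bases after the first RefSeq start of CD86, at 122055362, and ends 2716 bases before the second, at 122077784. The plus strand of the element, with the primer sites in capitals, reads as follows.
CD86 element: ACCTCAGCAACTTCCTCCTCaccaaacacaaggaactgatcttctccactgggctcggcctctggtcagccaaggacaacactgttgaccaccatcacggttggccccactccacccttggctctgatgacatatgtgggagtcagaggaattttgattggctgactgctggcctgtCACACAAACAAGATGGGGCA

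The element holds 1 match to GAGGAAGT, the letters searched for an ETS site of the PU.1 kind, on the minus strand (ACTTCCTC) and within the forward primer. Both strands were searched, and 1.51% of 35116 RefSeq promoter windows, cut to their first 197 bases, hold these letters. Those windows begin 250 bases before an annotated start, while the element is intronic, so this share is not a matched background. The interferon-stimulated response element (ISRE, GAAA on both sides of any 2 bases) and the gamma-activated site (GAS, TTCNNNGAA) had 0 matches in it. AAATCA, the letters searched for a GFI1 site, also had 0 matches, and shorter GFI1 letters were not searched. These matches describe letters and not bound sites, and binding data were not analysed here.

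CD276 and ICOSLG were the other members with a base mean over 50. CD276 encodes B7-H3, and its base mean was 260 in the knockdown and 201 in the inhibition experiment (ENSG00000103855.18, plus strand of chromosome 15, from 73683966 to 73714514). Per kb, CD276 stood at 47.5 and 36.6, above 52.2% and 51.2% of protein-coding genes. In the inhibition experiment the order of CD86 and CD276 rested on the gene length: CD86 was higher per kb of merged exon, at 40.3 against 36.6, and CD276 was higher per kb of the MANE Select transcript, the reference transcript of each gene, at 60.9 against 50.9.

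ICOSLG encodes the ligand of ICOS, and its base mean was 90.9 in the knockdown and 75.5 in the inhibition experiment (ENSG00000160223.17, minus strand of chromosome 21, from 44215382 to 44241446). This level is uncertain because the tables hold a second row for a gene on the same chromosome that shares part of its sequence, ENSG00000277117.4, listed as protein-coding FP565260.3. This second gene had a base mean of 109 and 103, so that ICOSLG held 45.5% and 42.3% of the sum of both rows, which is 199.8 and 178. Of the 50-base words of the MANE Select transcript of ICOSLG, 43.0% are also found in transcripts of this partial copy, and 20.4% of those of all its coding transcripts. GENCODE release 44 gives the copy the type "artifact". The promoter windows of both loci in RefSeq (GRCh38.p14, from 250 bases before to 50 after the start) are shown as a stretch that both loci share: shifted by 23 bases, the windows share 277 bases with 0 mismatches.
ICOSLG, chr21:44240894-44241193, minus strand: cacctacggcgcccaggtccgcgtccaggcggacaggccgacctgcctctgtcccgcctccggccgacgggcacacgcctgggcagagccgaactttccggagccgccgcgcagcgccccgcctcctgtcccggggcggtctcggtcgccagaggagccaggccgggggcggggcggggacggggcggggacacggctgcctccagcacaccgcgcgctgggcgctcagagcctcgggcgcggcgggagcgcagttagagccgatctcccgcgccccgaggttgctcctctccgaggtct
LOC102723996, chr21:5022281-5022580, plus strand: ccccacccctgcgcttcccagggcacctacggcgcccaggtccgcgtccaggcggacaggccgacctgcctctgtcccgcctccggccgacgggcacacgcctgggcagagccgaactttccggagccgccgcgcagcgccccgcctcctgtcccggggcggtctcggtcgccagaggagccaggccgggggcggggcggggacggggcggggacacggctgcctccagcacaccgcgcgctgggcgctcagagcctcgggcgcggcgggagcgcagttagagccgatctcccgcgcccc

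With both rows summed, ICOSLG would rank 4 of 8 by base mean in the knockdown and 3 of 8 in the inhibition experiment. Its merged exons cover 19441 bases against 7078 in the MANE Select transcript, so its level per kb was 4.68 and 3.88 with the first length and 12.8 and 10.7 with the second.

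The remaining 4 genes had low levels. CD274 encodes PD-L1, a ligand of the T cell receptor PD-1 (ENSG00000120217.14, plus strand of chromosome 9, from 5450503 to 5470566), and had a base mean of 15.0 in the knockdown and 6.43 in the inhibition experiment. PDCD1LG2, which encodes the other ligand of PD-1, PD-L2, lies next to it on the same strand (ENSG00000197646.7, from 5510531 to 5571282). Its base mean of 0.186 and 0.560 comes to 1.11 and 2.24 normalized counts over all libraries. Both sums are under the 3 normalized counts taken as the floor, and PDCD1LG2 was treated as not detected. CD40 had a base mean of 3.75 and 7.94 (ENSG00000101017.13, plus strand of chromosome 20, from 46118271 to 46129863), or 22.5 and 31.8 normalized counts over all libraries.

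The low CD80 level may include reads of another gene, which was not tested. The exons of CD80 overlap those of TIMMDC1, a gene of the opposite strand with a base mean of 3128 and 3587, over 798 bases. Of the 50-base words of CD80, 24.9% are also found in TIMMDC1 transcripts. The library kit does not mark strand, so reads of this stretch cannot be told apart. CD86, CD40, CD274, PDCD1LG2 and VSIR share 0 such words with transcripts of other genes, and the MANE Select transcript of CD276 shares 0.

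**Figure D2:**
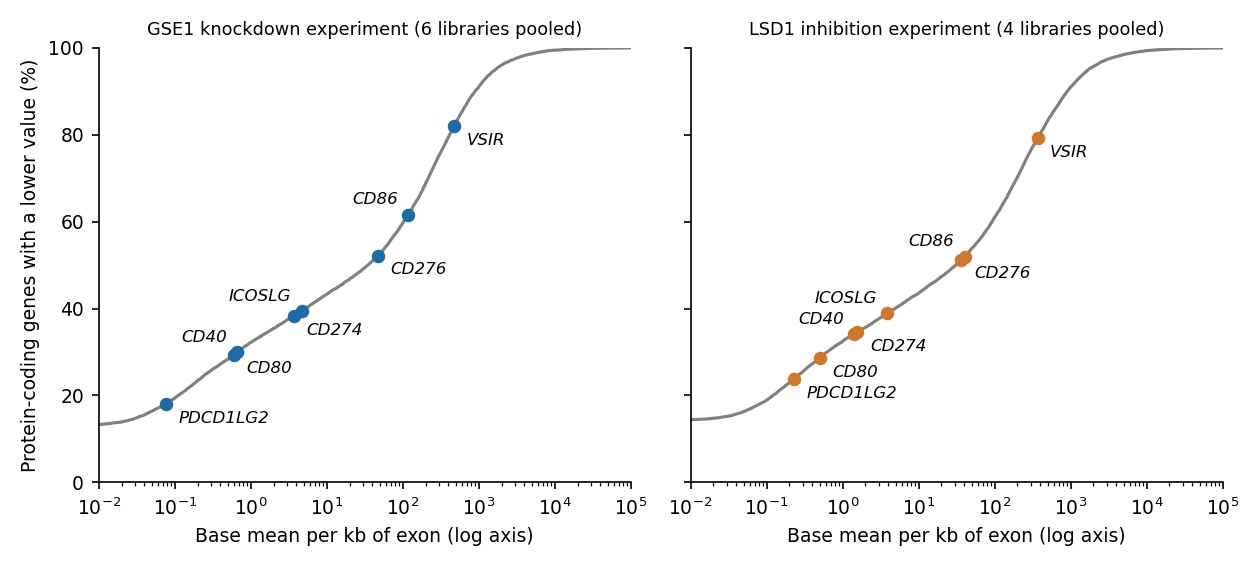
Share of protein-coding genes with a lower value (y axis, %) against base mean per kb of merged exon (x axis, log), for the knockdown (left) and the inhibition experiment (right). The grey curve is all protein-coding genes and the points are the 8 genes, of which VSIR, CD86 and CD276 lie above 50% in both panels; against genes with a base mean above 0, 2 and 1 of the 8 lie above the median.

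In all, 4 of the 8 genes reached a base mean of 50 in each experiment, against 55.9% and 55.4% of protein-coding genes. The median base mean of the 8 genes was 53.0 and 41.7, and that of all protein-coding genes was 162 and 148. Per kb, 3 of the 8 lay above the median protein-coding gene in both experiments, but among protein-coding genes with a base mean above 0 this number was 2 in the knockdown and 1 in the inhibition experiment. With the MANE Select length it was 3 and 2. The span within the family was wide, as VSIR stood 4.03-fold above CD86 per kb in the knockdown and 9.14-fold in the inhibition experiment, and 129.6-fold and 235-fold above CD274.

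The promoters of the members differed in CpG content. The set of RefSeq promoter windows used here held 6 of the 8 genes, and CD40 and PDCD1LG2 had no window in that set. VSIR has 35 CpG in its window, ICOSLG 42, and the windows of CD276 37 and 28, against a median of 14 over 35116 promoters. CD274 has 22. The windows of CD86 hold 3 and 4 and that of CD80 holds 7. In the knockdown experiment the second highest level per kb thus went with the CpG-poor windows of CD86, and the highest with the CpG-rich window of VSIR. CD274 was the member whose window held ISRE letters, with 2 overlapping matches on the minus strand, and GAS letters, with 1 match. These letters occur in 3.57% and 7.66% of promoter windows. CD80 held 1 match to AAATCA, found in 13.2% of windows. The CD274 window is shown with the matches in capitals, the ISRE letters first and the GAS letters second.
CD274, chr9:5450292-5450591, plus strand: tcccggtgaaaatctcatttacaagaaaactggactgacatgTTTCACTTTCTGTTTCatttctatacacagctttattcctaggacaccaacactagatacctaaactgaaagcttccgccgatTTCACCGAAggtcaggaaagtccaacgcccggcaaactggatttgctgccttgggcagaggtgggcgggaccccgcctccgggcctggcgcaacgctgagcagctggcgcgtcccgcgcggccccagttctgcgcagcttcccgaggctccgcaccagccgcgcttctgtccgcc

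The genes on the T cell side of these pairs were at or near 0. Of CD28, CTLA4, ICOS, PDCD1 and CD40LG, 2 were listed at 0 in the knockdown experiment, ICOS and PDCD1, and all but CD28 were listed at 0 in the inhibition experiment. The highest of them was CD28, at 0.620 in the knockdown and 0.220 in the inhibition experiment. The receptors that read CD86, CD274 and ICOSLG on T cells were thus at 0 or near it in cells that contained CD86 and VSIR RNA.

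RNA of every gene listed for CD40 signal transduction, in contrast, was found while that of CD40 itself was low. The list holds TRAF adaptors, the ubiquitin ligases BIRC2 and BIRC3, the kinase MAP3K14 and NF-kappaB subunits. All 12 of its genes reached a base mean of 50 in both experiments, against 55.9% and 55.4% of protein-coding genes. Per kb, TRAF1, TRAF5 and BIRC3 lay under the median protein-coding gene in both experiments. The highest were RELA, the p65 subunit of NF-kappaB, at 4158 and 3368, and NFKB1, the precursor of p50, at 3156 and 2580. The lowest was BIRC3, at 87.1 and 50.1. TRAF1, an adaptor that itself is known as a target of NF-kappaB, had 121 and 54.1.

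Of 10 other B7 and butyrophilin genes, 6 reached 50 in each experiment. BTN2A1 and BTN3A2, butyrophilins known for their part in the recognition of target cells by gamma-delta T cells, were the highest, at 2190 and 2139 in the knockdown and 1781 and 2067 in the inhibition experiment. NCR3LG1, which encodes the NKp30 ligand B7-H6, had 946 and 788. VTCN1, HHLA2, BTN1A1 and BTNL9 were all under 10. Among partners of PD-L1 and VISTA, CMTM6, which stabilizes PD-L1 at the cell surface, had 2898 and 2750, and SELPLG, an adhesion molecule described as a receptor of VISTA, had 994 and 1222. IGSF11, another described partner of VISTA, was at 0.0876 and 0.838.

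**Figure D3:**
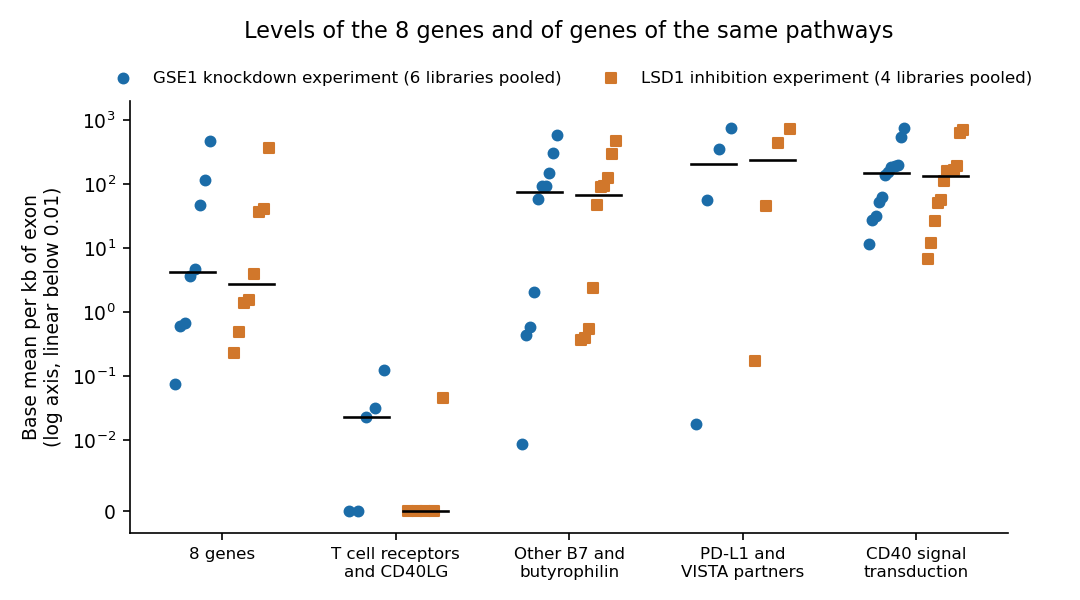
Base mean per kb of merged exon (y axis, log, linear below 0.01) of the 8 genes and of 4 gene lists, with circles for the knockdown and squares for the inhibition experiment and a black bar at the median of each list. The T cell receptors and CD40LG lie at or near 0, and all 12 CD40 transduction genes lie above the medians of the 8 genes. The median protein-coding gene, not drawn, stands at 35.1 and 31.1 per kb, above TRAF1, TRAF5 and BIRC3.

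The pooled levels of both experiments were set side by side as parts per 1000000 of the summed base means, which were 40543130 and 41201112. The tables were normalized separately and the experiments differ in vector, time, treatment and the share of treated libraries, and these cannot be told apart in such a ratio. CD86 was 2.97-fold higher in the knockdown than in the inhibition experiment, at 9.99 against 3.36 parts. Of the 12354 protein-coding genes that reached 10 in both tables, 148, or 1.20%, had a higher ratio, and their median ratio was 1.06 with 90% of genes between 0.635 and 1.99. CD276, VSIR and ICOSLG had ratios of 1.32, 1.31 and 1.22, within that range. CD274 had a ratio of 2.38, above that range, from 90.3 normalized counts over 6 libraries against 25.7 over 4. For CD40 the ratio was 0.480, below that range, from 22.5 and 31.8 normalized counts. For CD80 it was 1.24, from 11.7 and 6.39. CD274, CD40 and CD80 had a base mean under 10 in an experiment, so the genes of that range do not include them. No ratio was formed for PDCD1LG2, which is under the floor in both. The ratio of GSE1 was 0.678 and that of KDM1A 1.24.

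**Figure D4:**
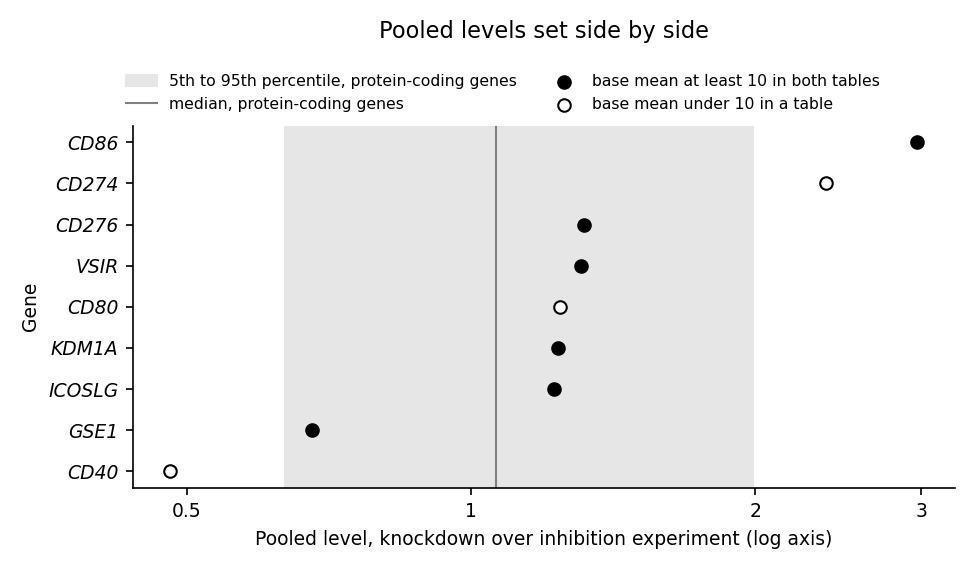
Ratio of the pooled level (parts per 1000000) in the knockdown experiment to that in the inhibition experiment (x axis, log) for 7 of the 8 genes, GSE1 and KDM1A. The grey band spans 90% of protein-coding genes and the line their median; open circles have a base mean under 10 in a table. CD86, at 2.97, and CD274, at 2.38, lie to the right of the band, and CD40, at 0.480, lies to the left.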

How the data were processed

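mRNA-seq libraries were made from total RNA of NB4 cells with a TruSeq v2 kit, which keeps no strand. Per the labels and the paper's methods, STAR 2.7 (on hg38), RSEM and DESeq2 were the tools of the authors. The deposited signal is the base mean, normalized counts averaged over all 6 libraries of the knockdown or all 4 of the inhibition experiment. The other 10 and 5 numeric columns hold the authors' own comparisons (log2 fold changes, their standard errors, Wald statistics, p-values and adjusted p-values) and were not used. The test that had been planned needs counts per library and was not run, and neither was a protein alignment. Depth per library is unknown, since 3448 of 3751 base means under 0.25 in the knockdown table were distinct and share no step of 1 read. The sums of normalized counts given here, and the floor of 3, are therefore not numbers of reads.

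Base means were divided by merged exon lengths from GENCODE release 44 on GRCh38, which held 60261 of 60603 stable identifiers. The annotation release of the authors is not given in the sources used here. Percentiles count protein-coding genes with a lower value, 19887 of which had a length. The genes named were the 8 members, GSE1, KDM1A and genes of lists (T cell side, other B7 and butyrophilin genes, CD40 transduction, PD-L1 and VISTA partners, lineage markers), namely the 2 highest of a list and those at 0. The result of 1 lineage list is not reported here. Other genes named were chosen after their values were seen. Members and lists were chosen with earlier results of these data known. Words of 50 bases and the promoter primers were matched exactly. Calculations used Python 3.11.15 and pandas 2.3.3, and the percentile step was tested on simulated data. The limits of 10 and 50 on the base mean, the word length and the 4 motifs were chosen after base means and promoter sequences had been seen.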

Additional observations from a re-analysis of the deposited data

How the results depend on the processing

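No paired analysis was possible because the values come from no test and the tables hold no value per replicate. For the same reason no replicate was left out, and the planned fits with another normalization, without a filter on low counts and with the replicate as a block were not run. Per kb, 3 members lay above the median protein-coding gene in each experiment. Among genes with a base mean above 0 this number was 2 in the knockdown and 1 in the inhibition experiment, as a background without the genes at 0 has a higher median, and with the MANE Select length it was 3 and 2. Against the background without the genes at 0, 14 percentiles of the members moved by more than 5 points and 2 did not. With the MANE Select length 2 moved and 14 did not. The ranks per kb in the knockdown experiment were the same with the longest transcript, the mean of coding transcripts and the MANE Select transcript, the last of which was added after seeing the data. In the inhibition experiment each of these lengths exchanged CD86 with CD276, at ranks 2 and 3, and CD274 with CD40, at ranks 5 and 6. Summing ICOSLG with its copy, also added after seeing the data, raised the base mean from 90.9 to 199.8 and from 75.5 to 178. Scaling to protein-coding genes alone multiplies every ratio between the experiments by the same number and so does not bear on any one of them. The means alone set no limit on the error of a level, and for PDCD1LG2, CD80 and CD40 they rest on at most 31.8 normalized counts in an experiment. For CD274 in the inhibition experiment the mean rests on 25.7 normalized counts.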
